A study of Homo sapiens with 24 samples.

Results

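OE33 is a cell line derived from a human esophageal adenocarcinoma of the lower esophagus, a glandular tumor that arises from columnar (gastric- and intestinal-type) metaplasia of the squamous esophageal lining. To provide baselines for shRNA knockdown of YY2 and of FOXRED1, the study transfected OE33 cells with a non-targeting shRNA (shControl) in each of the knockdown experiments. Here the 3 shControl libraries of the FOXRED1 experiment (labelled FOXRED1-NC) were compared with the 3 shControl libraries of the YY2 experiment (labelled YY2-NC), chosen by their labels alone and joined on Ensembl gene ID, which makes 6 of the 24 libraries of the series. By their labels and the study's methods, both groups are the same line, with no gene targeted, given the same kind of control plasmid with Lipofectamine 2000 and harvested 72 h after transfection. Both groups are thus models of a transfected culture, and the share of cells that took up the plasmid is not given. The labels are the only source for what the FOXRED1-NC libraries are, and their FOXRED1 level, given below, was lower than in the other control groups, so each difference is one between the libraries labelled FOXRED1-NC and those labelled YY2-NC. The other libraries used for context were shFOXRED1 (3), shYY2 (3) and the empty vector (EV) control of the TRIM15 overexpression experiment (3), which was harvested at 48 h. The methods give the medium as RPMI-1640 or DMEM with fetal bovine serum without assigning either to an experiment, and the sequence of the control hairpin was not used here. The labels separate the 6 libraries by experiment alone and give no passage, harvest day or library batch, so experiment and batch are confounded and cannot be told apart in anything that follows. Nothing in the labels says that the replicates of a group came from separate cultures, so the p-values measure the spread between these libraries only, which may be technical.

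The state of a cultured carcinoma line is known to move with growth phase, density, serum and inflammatory signals. Cells leaving the cycle lower the genes of DNA replication and mitosis, serum and stress raise immediate early transcription factors such as FOS and JUN, and foreign nucleic acid raises interferons and the genes they induce. In esophageal adenocarcinoma lines, columnar genes (mucins, CDX2, CEACAM5) and squamous or basal genes (KRT14, KRT17) can also be expressed side by side. The gene lists below cover these programs and others of metabolism, signalling and stress, and were chosen with earlier results of these data known.

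Totals ranged from 15100992 to 18522633 counts in FOXRED1-NC and from 17035036 to 19994837 in YY2-NC. Within a group the per-gene chi-square between libraries averaged 1.47 to 3.61 times what counting alone gives, so no library was a copy of another. The correlation of log2 CPM across genes was at least 0.99 within each group and 0.940 to 0.941 between them, a description across genes, which are not independent replicates. The median over genes of the SD of log2 CPM was 0.10 in FOXRED1-NC and 0.0775 in YY2-NC. All 12 epithelial markers of OE33 were measured in both groups, with a summed level of 16540 to 17490 CPM in FOXRED1-NC and 13390 to 14300 CPM in YY2-NC. Most markers of other cell types were too low to pass the filter on low counts. PTPRC, the pan-leukocyte antigen CD45, had no count in any FOXRED1-NC library and at most 0.118 CPM in YY2-NC. Of 10 fibroblast markers 2 passed that filter, of 10 endothelial markers 1 and of 12 immune markers 2. In that order the list sums were 25.9 to 26.7 against 12.1 to 13.7 CPM, 22.9 to 27.9 against 15.2 to 16.9 CPM, and 12.2 to 14.5 against 4.59 to 5.19 CPM (FOXRED1-NC against YY2-NC). Of those that passed, both immune markers (1.42 and 3.70 on the log2 scale), the endothelial marker (0.69) and 1 of the 2 fibroblast markers were called higher in FOXRED1-NC. With no filter, the median log2 difference was -1.82 over 10 fibroblast markers, -1.48 over 10 endothelial markers and 0.505 over 9 immune markers. Most of these were too low to test, so the lists have no common direction. The fibroblast sum was nearly all COL1A1, a collagen chain, at 23.7 to 25.1 CPM in FOXRED1-NC. Its part in the results was not tested. The 37 genes of the mitochondrial chromosome were listed at 0 in every library.

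The genes targeted by the study were read first, since no library here should carry a knockdown. FOXRED1, an assembly factor of respiratory complex I (GRCh38 chr11:126269055-126278131), stood at 17.6, 17.1 and 17.0 CPM in FOXRED1-NC and at 33.4, 32.0 and 32.3 CPM in YY2-NC. The level in the libraries labelled as control of its own knockdown experiment was thus lower in every library, by 0.90 on the log2 scale (SE 0.071, adjusted p = 4.7e-10, edgeR). In shFOXRED1 it was 9.93, 11.0 and 8.58 CPM, in shYY2 18.9, 15.9 and 17.6 CPM, and in EV 37.4 to 38.2 CPM. FOXRED1-NC thus lay above shFOXRED1, overlapped shYY2 and lay below YY2-NC and EV, and this gene alone does not settle whether the libraries labelled FOXRED1-NC are an untargeted control. YY2, a zinc-finger transcription factor related to YY1, stood at 1.36, 0.924 and 1.94 CPM in FOXRED1-NC and at 2.35, 2.35 and 2.30 CPM in YY2-NC, resting on 14 to 29 and 40 to 46 counts. The difference was -0.70 (SE 0.26, adjusted p = 0.020), and it did not pass with DESeq2 or without replicate 2 of FOXRED1-NC, when the log2 difference was -0.49, or with offsets for GC content and length (-0.58). TRIM15, the ubiquitin ligase of the third experiment, had no count in any of the 6 libraries and reached 5.53 to 11.7 CPM in the HA-TRIM15 libraries.

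Across the genome the controls differed widely. Of 15803 genes tested, 5438 (34.4%) were higher and 5497 (34.8%) lower in FOXRED1-NC at an adjusted p under 0.05 (edgeR quasi-likelihood test, Benjamini-Hochberg), 69.2% in all. With a fitted fold of at least 2 as well, 1650 genes (10.4%) were higher and 1394 (8.82%) lower. The ranges of the 3 libraries did not overlap for 11399 genes (72.1%). The median log2 difference over all genes tested, called or not, was -0.01 and the median absolute difference 0.43. Of the 10935 genes called, 5660 had a fold of at least 1.5 and 3044 a fold of at least 2. The median log2 difference of single chromosomes lay between -0.16 (chromosome 12) and 0.16 (chromosome 21). The shares of all genes called, 34.4% higher and 34.8% lower, are the background for every gene list below.

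**Figure D1:**
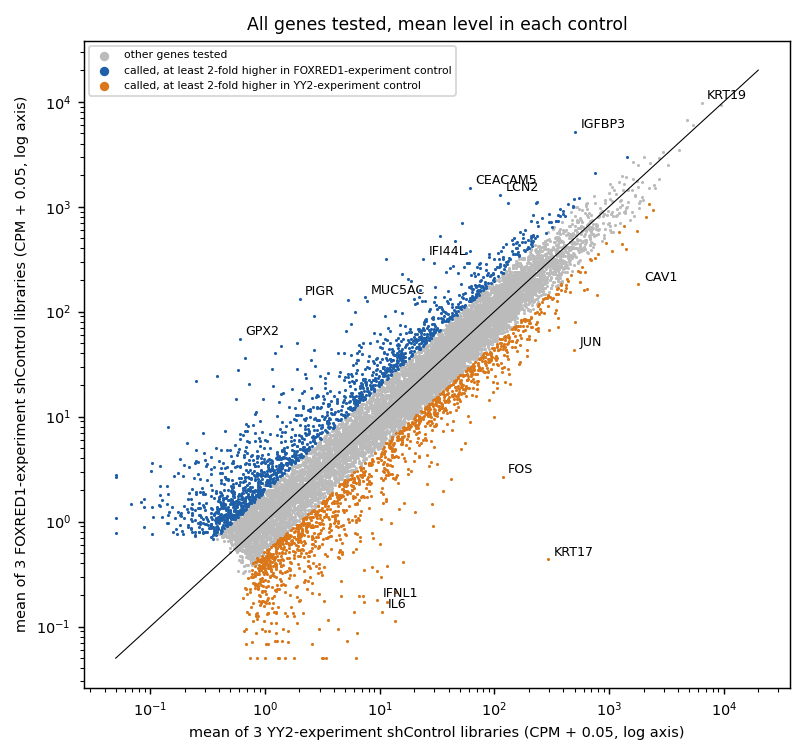
Mean level of each gene tested in the 3 YY2-NC libraries (x, CPM + 0.05, log axis) and the 3 FOXRED1-NC libraries (y, CPM + 0.05, log axis); the line marks equal levels, blue and orange points are the 1650 and 1394 genes called at least 2-fold higher or lower in FOXRED1-NC. Most genes lie near the line, KRT17, FOS and CAV1 far below it, and PIGR, GPX2, CEACAM5 and IGFBP3 far above it.

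The size of this control difference was set beside the other comparisons in OE33. The 3044 genes called at least 2-fold (19.3%) compare with 544 (3.46%) for shFOXRED1 against its own shControl, 3142 (19.6%) for shYY2 against its own shControl, 3633 (22.7%) for FOXRED1-NC against EV and 448 (2.84%) for YY2-NC against EV. At any fold the calls were 36.6%, 75.0%, 73.7% and 44.7% of the genes tested, in the same order. By direction, 16.8% were higher and 19.7% lower in shFOXRED1 than in its shControl, 36.8% higher and 38.1% lower in shYY2 than in its shControl, 36.5% higher and 37.2% lower in FOXRED1-NC than in EV, and 22.1% higher and 22.6% lower in YY2-NC than in EV. At 2-fold these were 2.19% and 1.27%, 10.9% and 8.71%, 12.6% and 10.0%, and 2.18% and 0.652%. These comparisons share libraries with each other and with the main comparison, so their counts are listed side by side and not as independent results. YY2-NC and EV differ in plasmid, experiment and hours after transfection, and had fewer 2-fold calls than the 2 shControl groups, which differ in experiment alone according to the labels. The shFOXRED1 and shYY2 libraries share none with the main comparison. Of 10733 genes called between the controls and tested in both, 7722 (71.9%) had the same direction in shFOXRED1 against shYY2, 6325 (58.9%) were also called the same way and 1945 (18.1%) the opposite way. Of 2854 genes called at least 2-fold between the controls and tested in both, 2494 (87.4%) had the same direction in shFOXRED1 against shYY2, where 2159 (75.6%) were also called the same way and 192 (6.73%) the opposite way. In that comparison 71.3% of 16380 genes were called, 36.0% higher and 35.2% lower, and it holds both knockdowns as well as the experiments.

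The largest differences are given gene by gene. Among the 10 protein-coding genes highest in FOXRED1-NC by fitted fold, PIGR, the receptor that carries polymeric immunoglobulins across mucosal epithelium, was at 133, 134 and 130 CPM against 1.58, 2.06 and 2.25 CPM, and GPX2, the gastrointestinal glutathione peroxidase, at 58.1, 56.5 and 50.2 CPM against 0.546, 0.470 and 0.649 CPM. Groups that do not overlap were a condition for entry to this set. The log2 differences were 6.09 (SE 0.082) for PIGR and 6.62 (SE 0.13) for GPX2. CYP2B6, a drug-metabolizing cytochrome P450, had 112 to 148 counts in FOXRED1-NC and 1 or 2 in each YY2-NC library. The other members of that group were CAVIN2, FRY, FER1L6, CAPN8, FREM2, RARB and PELI2, of which CAPN8 is a stomach-type calpain and RARB a retinoic acid receptor. Their log2 differences ran from 4.87 (PELI2) to 6.13 (CAVIN2).

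Among the 10 genes lowest in FOXRED1-NC, 6 were keratins or interferon lambda genes. KRT17, a keratin of basal and wounded epithelium (GRCh38 chr17:41619441-41624842), was at 304, 298 and 279 CPM in YY2-NC and 0.164, 0.660 and 0.335 CPM in FOXRED1-NC, a log2 difference of -9.58 (SE 0.11). It had 5072 to 5588 counts in each library of YY2-NC and 3 to 10 in each of FOXRED1-NC. KRT14, another type I keratin of basal epithelium, had 106 to 129 counts against 0 to 2, and KRT6A 245 to 261 against 1 to 4. These keratins have near-identical relatives and pseudogenes between which reads can be split. OLR1, a receptor for oxidized low-density lipoprotein, IL6, the interferon lambda genes IFNL1, IFNL2 and IFNL3, RAET1L, a ligand of the NKG2D receptor, and ANXA8L1, a near copy of ANXA8, completed the group. IFNL3 had 103 to 122 counts in YY2-NC and none in FOXRED1-NC, so it was at least 33.1-fold higher in YY2-NC against a floor of 3 counts per library, with the limit that IFNL2 and IFNL3 are nearly identical.

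Counted as on or off, 9 genes had at least 30 counts in every FOXRED1-NC library and at most 3 in every YY2-NC library, and 17 genes the reverse. The first set held CYP2B6, HS6ST2, FAM131B, GABRP, CEACAM7, COLGALT2 and LRRN1. LRRN1, a leucine-rich repeat membrane protein, had no count in YY2-NC and 32 to 47 in FOXRED1-NC, at least 15.9-fold higher. The second set held OLR1, IL6, RAET1L, KRT14, IFNL3, ANXA8L1, IFNL2, ANKRD1, ALPP, an alkaline phosphatase of placenta, and IFNB1, besides 7 others.

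The largest gains and losses in share of all counts, a ranking that favors abundant genes, were these. KRT19, a keratin of simple epithelium, took 0.965% of counts in FOXRED1-NC against 0.639% in YY2-NC, IGFBP3 0.510% against 0.0505%, MET 0.656% against 0.482%, HMGA1 0.292% against 0.143%, and CEACAM5 0.150% against 0.00607%. IGFBP3, a secreted binder of insulin-like growth factors, stood at 5174, 5237 and 5076 CPM against 514, 507 and 494 CPM, a log2 difference of 3.38 (SE 0.034). The largest losses were in CAV1 (0.0180% against 0.180%), RPS2, LDHA, HSP90AA1 and F3. CAV1, the coat protein of caveolae, was at 180 to 183 CPM in FOXRED1-NC and 1778 to 1814 CPM in YY2-NC, a log2 difference of -3.29 (SE 0.037).

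The proliferation genes moved as a block. Of 48 DNA replication genes all were lower in FOXRED1-NC, 33 of them at least 2-fold, with a median log2 difference of -1.16 beside -0.01 for all genes and 34.8% of all genes lower. RRM2, the small subunit of ribonucleotide reductase, stood at 49.7, 54.6 and 56.5 CPM against 223, 222 and 228 CPM (-2.05, SE 0.048). PCNA, the sliding clamp of DNA polymerase, stood at 154, 173 and 159 CPM against 394, 381 and 370 CPM. Neither gene's groups overlapped, which was so for 72.1% of all genes tested. MCM10 (-1.99), TYMS (-1.77) and TK1 (-1.67) were also lower. The smallest difference of the list was -0.45, for RPA1, a subunit of the single-strand binding complex.

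Of 44 mitosis genes 43 were lower, 41 of them at least 2-fold, and none was higher, with a median of -1.39, beside 34.8% of all genes lower and 8.82% lower by at least 2-fold. SPC25 was the gene that did not pass (-0.47, 1.27 against 1.76 CPM). UBE2C, the ubiquitin-conjugating enzyme of the anaphase-promoting complex, stood at 45.4, 41.4 and 42.2 CPM against 190, 191 and 199 CPM (-2.14, SE 0.048). MKI67, which encodes the proliferation antigen Ki-67, was at 346 to 363 CPM in FOXRED1-NC and 781 to 831 CPM in YY2-NC, so the gene was still well expressed in both. HMMR (-2.11), NUF2 (-1.90) and ANLN (-1.88) followed. Transcripts still expressed by a smaller share of cycling cells and lower transcripts per cell cannot be told apart in bulk RNA. The promoter of CDC20, the activator of the anaphase-promoting complex (-1.70 on the log2 scale), is printed as an example of the cell cycle homology region, searched as the letters TTTGAA and, for the other strand, as TTCAAA, a motif known from mitotic promoters. Its matches are in capitals, from RefSeq GRCh38.p14, chr1:43358731-43359030, plus strand, 250 bases before to 50 after the start.
CDC20: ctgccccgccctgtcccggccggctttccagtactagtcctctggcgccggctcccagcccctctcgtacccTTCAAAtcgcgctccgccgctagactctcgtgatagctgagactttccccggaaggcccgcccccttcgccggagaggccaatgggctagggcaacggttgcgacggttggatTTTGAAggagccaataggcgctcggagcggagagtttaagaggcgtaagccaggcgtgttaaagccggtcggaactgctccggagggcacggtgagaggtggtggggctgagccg
Among the 37 mitosis genes with a RefSeq promoter, 26 (70.3%) held the motif on either strand, beside 4961 of 27305 genes (18.2%). A match is a string in this window and not a measured site.

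Growth-related genes with abundant products were lower too, by less. Of 49 cytosolic ribosomal protein genes 48 were lower and 1 higher (RPL26, 0.52), with a median of -0.50 and the lowest at RPS23 (-1.56). RPS2 stood at 974, 966 and 835 CPM against 2452, 2430 and 2304 CPM. These genes have many processed pseudogenes, between which reads can be split. Of 44 ribosome biogenesis genes 36 were lower and 2 higher (POLR1B and POLR1A, subunits of RNA polymerase I), with a median of -0.41 and NOP56, a box C/D snoRNP core protein, lowest at -1.20. Of 27 heat shock and chaperone genes 22 were lower and 3 higher, with a median of -0.54. HSP90AA1, the inducible cytosolic HSP90, was at 1035 to 1114 CPM against 2187 to 2294 CPM, while HSPB1 (0.54) and HSF1 (0.53) were higher. Across all genes, the tenth with the lowest GC content had a median log2 difference of -0.12 and the tenth with the highest 0.20, while over 10 equal bins of gene length the medians lay between -0.11 and 0.15. With offsets for GC content and length, an alternative chosen after the data were seen, the ribosomal protein median was -0.42 and the mitosis median -1.33.

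Glycolysis genes were mostly lower: 20 of 28 against 6 higher, with a median of -0.38. LDHA, which turns pyruvate to lactate, stood at 790, 832 and 790 CPM against 2134, 2005 and 2112 CPM (-1.35, SE 0.037), and ENO2 and ALDOA fell by 1.82 and 1.68 on the log2 scale. PGD, an enzyme of the oxidative pentose phosphate branch that was counted with the list, was 0.99 higher. Hypoxia genes outside glycolysis followed the list in 19 of 31 (7 higher, median -0.45), with ADM at -1.81 and NDRG1 at -0.97, but CA12, a membrane carbonic anhydrase, was higher at 22.7 to 25.3 CPM against 2.89 to 3.06 CPM (3.07, SE 0.11). VEGFA did not pass (0.00). Of 41 respiratory chain subunits encoded in the nucleus 24 were lower, none was higher and 17 did not pass (median -0.23), and of 32 tricarboxylic acid cycle genes 18 were lower and 7 higher (median -0.20), IDH1 and PC among the latter at 1.08 each.

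The immediate early program was lower in FOXRED1-NC. Of 42 genes of AP-1, immediate early and ERK output, 31 were lower and 8 higher, with a median of -0.83, and the 18 with at least a 2-fold difference were all lower. FOS, a subunit of the AP-1 transcription factor, stood at 2.51, 2.64 and 2.75 CPM against 122, 119 and 114 CPM (-5.47, SE 0.079). JUN, its partner, stood at 44.0, 44.3 and 41.2 CPM against 511, 510 and 465 CPM (-3.5, SE 0.050), and DUSP1, a phosphatase of MAP kinases, at 9.19 to 10.5 CPM against 98.3 to 102 CPM. The levels in FOXRED1-NC were thus a small fraction of those in YY2-NC in all 3 libraries. The 8 higher members included, among genes picked after their values were seen, DUSP6 (0.51), SPRED1 (0.58), SPRED2 (0.60), DUSP5 (0.71), ETV5 (0.75), JUND (0.83) and MYC (0.27). Of 30 genes of ERBB receptors and ligands 16 were higher and 12 lower, beside 34.4% and 34.8% of all genes. At least 2-fold, 4 were higher and 2 lower, beside 10.4% and 8.82% of all genes. The list median was 0.33 and the list range -1.32 to 5.13. The ligands HBEGF (-1.32), AREG (-1.08) and EREG (-0.51), named after their values were seen, were lower. The receptors ERBB2 (0.41) and ERBB3 (0.55) were higher and EGFR (-0.31) lower. FGFR2, a fibroblast growth factor receptor, was at 101, 97.2 and 101 CPM against 5.24, 6.35 and 6.44 CPM (4.07, SE 0.071).

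Of 36 Hippo and YAP genes 14 were higher and 17 lower (median -0.13), beside 34.4% and 34.8% of all genes. At least 2-fold, 4 were higher and 8 lower, beside 10.4% and 8.82% of all genes. ANKRD1 (at most 3 counts in each FOXRED1-NC library and 66 to 102 in YY2-NC), CCN1 (30.3 to 35.3 against 165 to 168 CPM) and CCN2 (-1.05), all commonly used YAP readouts, were lower. AMOT (1.67), TGFB2 (1.55) and TEAD2 (1.21) were higher, and YAP1 itself differed by -0.10.

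Of 40 NF-kB genes 24 were lower and 15 higher, with a median of -0.24, beside 34.8% of all genes lower and 34.4% higher, so the higher share was near that of all genes. IL6, a cytokine that acts through STAT3, had 177 to 203 counts in YY2-NC (10.1 to 10.8 CPM) and 0, 1 and 3 counts in FOXRED1-NC. CSF3, the granulocyte colony-stimulating factor, stood at 0.328, 0.462 and 0.201 CPM against 11.5, 11.9 and 11.1 CPM (-5.07, SE 0.21). CCL20 (-3.22), CXCL2 (-2.07), TNFAIP3 (-1.80, the ubiquitin-editing inhibitor A20) and CXCL8 (-1.47) were also lower. LCN2, a siderophore-binding lipocalin made by epithelium, moved the other way and stood at 1296, 1373 and 1247 CPM against 114, 112 and 112 CPM (3.56, SE 0.043). BCL2A1 (3.5), IL1B (1.41) and PTGS2 (1.18) were higher as well, and the transcription factor subunits RELA (-0.14) and NFKB1 (0.20) differed little.

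Of 50 interferon genes and interferon-stimulated genes 29 were higher and 16 lower in FOXRED1-NC, with a median of 0.83, 22 and 11 of them at least 2-fold. Of the interferons, IFNL1 had 163 to 198 counts in YY2-NC and 1, 5 and 0 in FOXRED1-NC, and IFNB1, the type I interferon of epithelial cells, 61 to 65 counts against 0, 3 and 0. Lower with them were CXCL10 (-3.86), CXCL11 (-3.38), IFIT2 (-2.66), OASL (-2.32), RSAD2 (-2.0), ISG20 (-1.55), HERC5 (-1.41) and IFIH1 (-1.41), several of which, IFIT2, OASL and RSAD2 among them, are known to respond to IRF3 directly as well as to interferon. IFIT2 stood at 79.7, 76.9 and 81.1 CPM against 507, 494 and 519 CPM (SE 0.043).

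Antiviral genes were found in both directions. Among those higher in FOXRED1-NC, IFI44L stood at 308, 325 and 325 CPM against 23.4, 24.6 and 23.9 CPM (3.76, SE 0.048). XAF1 (3.06), MX2 (2.75), IFI6 (2.67), MX1 (2.64), OAS2 (2.38) and OAS1 (1.88) followed, the MX genes encoding antiviral GTPases and the OAS genes sensors of double-stranded RNA. Of the ISGF3 complex that binds interferon response elements, IRF9 stood at 13.1, 12.5 and 11.3 CPM against 3.44, 2.59 and 3.04 CPM (2.04, SE 0.14), and STAT2 was 0.43 higher. IRF1 (-0.07), IRF7 (-0.34), RIGI (-0.09), DHX58 (-0.14) and IFI27 (-1.01, SE 0.53) did not pass.

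**Figure D2:**
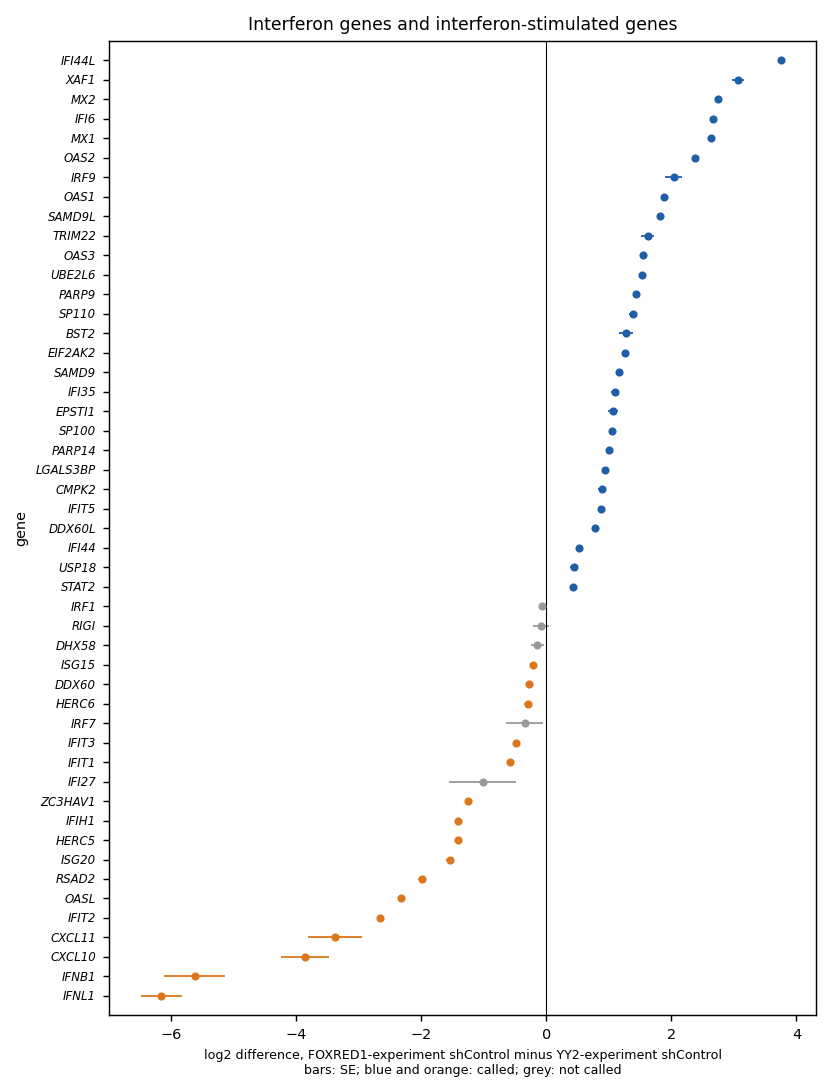
Log2 difference (x, FOXRED1-NC minus YY2-NC, bars are SE) of 49 of the 50 interferon genes and interferon-stimulated genes (y), blue for called higher, orange for called lower and grey for not called. The interferons and the chemokines CXCL10 and CXCL11 lie at the lower end, IFI44L and XAF1 at the upper end.

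Genes of both directions carry the interferon response element core in their promoters. The promoters of IFNL1, from the lower group, and of IFI6 and IFI44L, from the higher group, are printed with every match to the core in capitals (a pair of GAAA strings, or of TTTC strings on the other strand, with any 2 bases between them), matches that overlap being joined (RefSeq GRCh38.p14, chr19:39296157-39296456, plus strand, chr1:27672143-27672442, minus strand and chr1:78620198-78620497, plus strand).
IFNL1: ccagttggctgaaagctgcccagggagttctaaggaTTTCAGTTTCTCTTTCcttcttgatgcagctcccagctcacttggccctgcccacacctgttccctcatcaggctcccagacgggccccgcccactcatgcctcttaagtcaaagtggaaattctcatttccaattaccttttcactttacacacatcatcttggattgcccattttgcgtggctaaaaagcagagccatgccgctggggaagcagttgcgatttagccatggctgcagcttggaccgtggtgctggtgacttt
IFI6: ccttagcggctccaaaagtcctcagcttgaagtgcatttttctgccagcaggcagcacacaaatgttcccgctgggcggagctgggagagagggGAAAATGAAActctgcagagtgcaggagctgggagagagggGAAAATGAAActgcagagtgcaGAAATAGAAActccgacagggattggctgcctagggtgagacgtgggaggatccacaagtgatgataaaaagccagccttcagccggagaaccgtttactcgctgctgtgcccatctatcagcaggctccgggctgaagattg
IFI44L: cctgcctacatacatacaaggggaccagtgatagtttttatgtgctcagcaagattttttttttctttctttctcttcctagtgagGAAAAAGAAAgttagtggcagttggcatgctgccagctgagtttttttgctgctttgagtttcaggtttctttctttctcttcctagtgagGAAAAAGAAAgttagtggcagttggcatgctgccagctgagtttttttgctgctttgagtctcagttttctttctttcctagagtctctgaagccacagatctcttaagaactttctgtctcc
The motif was in 25 of the 41 list genes with a promoter in the table (61.0%), in 14 of 24 called higher (58.3%), in 10 of 14 called lower (71.4%) and in 1195 of 27305 genes overall (4.38%). A match is a string in the window, and no factor's binding was measured.

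Columnar genes were mostly higher in FOXRED1-NC. Of 32 columnar lineage and intestinal genes 24 were higher, 18 of them at least 2-fold, 3 were lower and 5 did not pass, with a median of 1.40 beside -0.01 for all genes. The list median was 1.01 over members with at least 10 counts in every library. CEACAM5, the carcinoembryonic antigen, stood at 1538, 1522 and 1492 CPM against 61.9, 61.7 and 58.7 CPM (4.66, SE 0.042), and CEACAM6 (3.05) was also higher, reads between these near relatives being hard to divide. MUC5AC, the gel-forming mucin of gastric surface cells, stood at 144, 136 and 132 CPM against 7.54, 7.00 and 7.69 CPM (4.23, SE 0.065). MUC5B (3.17), MUC13 (2.55), TFF1 (2.36) and MUC3A (2.27) were higher with it. Among lineage factors, FOXA2 (1.89), FOXA1 (1.58), CDX2 (1.55), ELF3 (1.25) and HNF4G (1.18) were higher, CDX2 at 36.4 to 40.5 CPM against 12.6 to 14.2 CPM. GATA6 (0.14) and HNF4A (-0.01) did not pass. ANPEP (-2.90) and MUC16 (-2.47) were lower.

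Keratins and squamous genes went the other way, 24 of 33 lower and 7 higher, with a median of -1.01, which was -0.59 over members with at least 10 counts in every library. DSG3 (-4.26), SPRR1B (-4.07), SPRR3 (-2.66), KRT16 (-2.39) and S100A2 (-2.38), proteins of stratified epithelium and its cornified envelope, were lower beside the KRT17, KRT14 and KRT6A values above. The simple-epithelium keratins were not of one direction: KRT19 (0.63) and KRT7 (0.57) were higher, KRT8 (-0.87) and KRT18 (-0.62) lower. COL17A1, the hemidesmosome collagen of basal cells, stood at 140, 150 and 145 CPM against 779, 809 and 752 CPM (-2.41, SE 0.041). LAMB3 (-1.03) was lower with it, whereas LAMA3 (0.22) was slightly higher. Of 34 matrix and integrin genes 20 were higher and 9 lower (median 0.18), ITGB5 (1.83) and ITGAV (1.11) among the former.

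The list for epithelial and mesenchymal states showed no shift, with 14 of 32 higher and 11 lower (median 0.03, which turned negative, down to -0.06, under 4 alternatives). Its members were still far apart. TNC, an extracellular matrix glycoprotein, was at 7.66 to 10.2 CPM against 59.7 to 63.6 CPM (-2.78), and S100A4 (-2.26), SNAI1 (-2.43) and SNAI2 (-1.23) were lower. CDH1, the epithelial cadherin, differed by 0.09, EPCAM by 0.24, and ZEB1 (-0.04) did not pass. TJP3, a tight-junction protein, was 2.47 higher. In the TGF-beta and BMP list 17 of 29 were higher and 11 lower (median 0.35), LTBP3 (1.83), SMAD6 (1.55) and TGFB1 (1.29) against FST (-3.37) and INHBA (-1.65).

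Stress and nutrient programs also moved. Of 34 amino acid response genes, which ATF4 drives when amino acids run short, 28 were higher, 1 lower (SLC3A2, -0.33) and 5 did not pass, with a median of 0.60. SLC1A4, a neutral amino acid transporter, stood at 11.0, 8.71 and 7.78 CPM against 2.13, 1.82 and 1.5 CPM (2.37, SE 0.18). ASNS, asparagine synthetase, stood at 25.5, 24.4 and 26.9 CPM against 5.73, 5.35 and 5.54 CPM (2.23, SE 0.095), and PHGDH, which opens serine synthesis, at 121 to 126 CPM against 28.1 to 31.6 CPM (2.07). ATF4 itself was 0.82 higher, and CHAC1, a glutathione-degrading enzyme, 1.52 higher. DDIT3, which encodes CHOP, did not pass (-0.05). The promoters of ASNS and CHAC1 are printed with the amino acid response element core TGATGNAA (TTNCATCA on the other strand) in capitals (RefSeq GRCh38.p14, chr7:97872359-97872658, minus strand and chr15:40953221-40953520, plus strand).
ASNS: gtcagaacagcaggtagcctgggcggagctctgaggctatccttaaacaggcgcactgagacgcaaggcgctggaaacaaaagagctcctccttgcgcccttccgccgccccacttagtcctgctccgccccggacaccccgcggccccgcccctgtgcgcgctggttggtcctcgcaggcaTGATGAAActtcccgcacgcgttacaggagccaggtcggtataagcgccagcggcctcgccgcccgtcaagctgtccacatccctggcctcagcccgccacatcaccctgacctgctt
CHAC1: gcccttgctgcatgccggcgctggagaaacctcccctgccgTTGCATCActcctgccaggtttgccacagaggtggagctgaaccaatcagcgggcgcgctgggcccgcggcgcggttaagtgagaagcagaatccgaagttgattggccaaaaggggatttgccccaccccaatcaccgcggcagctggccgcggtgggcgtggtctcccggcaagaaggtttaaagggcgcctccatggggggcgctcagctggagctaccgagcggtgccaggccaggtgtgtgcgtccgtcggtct
The core was in 12 of 32 list genes with a promoter in the table (37.5%) and in 1217 of 27305 genes overall (4.46%). By direction, it was in 8 of the 24 called higher (33.3%) and in the 1 called lower.

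Genes of the unfolded protein response went mostly the other way, with 19 of 32 lower and 11 higher (median -0.28). Of all genes 34.8% were lower and 34.4% higher. At least 2-fold, 2 of the list were lower and 0 higher, beside 8.82% and 10.4% of all genes. The lumenal chaperones HSP90B1 (-0.99) and HSPA5 (-0.81) and the secreted MANF (-1.35) were lower, while XBP1 (0.62) and ERN1 (0.88) were higher. Of 28 p53 targets 13 were lower and 7 higher (median -0.14). GDF15, a stress-induced cytokine of the TGF-beta family, stood at 712, 727 and 637 CPM against 54.3, 54.9 and 49.0 CPM (3.74, SE 0.054), and GADD45A at 18.9, 20.8 and 20.9 CPM against 136, 142 and 135 CPM (-2.75, SE 0.054). CDKN1A, the cyclin-dependent kinase inhibitor p21, was 0.35 lower and MDM2 (0.04) did not pass. The list thus contained some of the larger differences in both directions without a shift of its own.

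Detoxifying enzymes were higher, with 21 of 30 NRF2 and xenobiotic genes higher and 7 lower (median 0.72). After GPX2, AKR1C3, an aldo-keto reductase, stood at 24.1, 24.2 and 22.3 CPM against 1.91, 2.18 and 2.54 CPM (3.42, SE 0.12), and CYP1B1 at 98.8, 102 and 105 CPM against 15.0, 12.1 and 13.2 CPM (2.94, SE 0.066). The AKR1C genes are close paralogs. NQO1, a common readout of NRF2, was 0.25 higher, GCLC 1.27 higher, and HMOX1 0.85 lower. Metallothioneins were lower, MT2A at 31.2, 32.9 and 31.2 CPM against 170, 140 and 178 CPM (-2.34, SE 0.076), with MT1E (-2.55), MT1F (-2.01) and MT1X (-1.89), which share near-identical sequence. Of the 17 metallothionein and zinc transporter genes, 3 were higher and 7 lower.

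Lipid genes, a subject of the study's knockdowns, were mainly higher in FOXRED1-NC. Of 22 fatty acid synthesis and desaturation genes 16 were higher and 5 lower (median 0.49, and 0.31 with offsets for GC content and length). MLXIPL, the carbohydrate response factor ChREBP, stood at 14.6, 13.9 and 14.8 CPM against 2.08, 2.00 and 1.75 CPM (2.92, SE 0.13). SREBF1 (1.18), SCD5 (1.19) and SCD (1.09), the desaturase that makes oleate, were higher, and ACACA, acetyl-CoA carboxylase, lower (-0.87), while FASN was 0.12 higher. Of 32 genes of triglyceride storage and fatty acid oxidation 21 were higher and 9 lower (median 0.33), with PPARA at 137, 137 and 139 CPM against 51.4, 52.6 and 53.1 CPM (1.41). PLIN5 (2.19) and PLIN4 (2.03), lipid droplet coat proteins, were higher from low levels, and PLIN2 (-0.32) was lower. Cholesterol genes showed no common direction (11 of 27 higher, 13 lower, median -0.11), and of 35 lysosome genes 19 were higher and 8 lower (median 0.16).

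The same lists were read in the libraries of the other OE33 groups, as the median over members of log2(CPM + 0.5) less the mean of YY2-NC. For DNA replication the 3 libraries of FOXRED1-NC lay at -1.18 to -1.10, shFOXRED1 at -1.95 to -1.85, shYY2 at -1.5 to -1.38 and EV at 0.17 to 0.20. For columnar genes FOXRED1-NC lay at 1.04 to 1.14, shFOXRED1 at 1.18 to 1.25, shYY2 at 0.10 to 0.21 and EV at -0.17 to -0.11. For the immediate early list the values were -0.86 to -0.79 in FOXRED1-NC, -1.03 to -0.93 in shFOXRED1, 0.06 to 0.14 in shYY2 and -0.09 to -0.07 in EV. In these 3 lists EV lay nearer to YY2-NC than to FOXRED1-NC, whereas in the NF-kB list EV, at -0.66 to -0.62, lay nearer to FOXRED1-NC, at -0.26 to -0.23. On single genes, FOS was at 2.51 to 2.75 CPM in FOXRED1-NC, 3.61 to 3.72 in shFOXRED1, 114 to 122 in YY2-NC, 444 to 455 in shYY2 and 105 to 110 in EV, and CEACAM5 at 1492 to 1538, 1955 to 2033, 58.7 to 61.9, 57.1 to 57.9 and 53.6 to 57.2 CPM in the same order. For these genes the libraries of the FOXRED1 experiment stood on one side and the other 3 groups on the other. KRT17 was graded, at 279 to 304 CPM in YY2-NC, 114 to 116 in shYY2, 40.4 to 43.5 in EV and under 1 CPM in both groups of the FOXRED1 experiment.

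In some lists shYY2 stood as far from YY2-NC as FOXRED1-NC did. For DNA replication shYY2 lay below FOXRED1-NC, and PCNA was at 78.9 to 85.5 CPM in shYY2, 91.7 to 94.7 in shFOXRED1 and 154 to 173 in FOXRED1-NC. For the amino acid response list shYY2 lay at -0.73 to -0.61 and FOXRED1-NC at 0.57 to 0.61, on opposite sides of YY2-NC. CYP1B1, among single genes, was at 98.8 to 105 CPM in FOXRED1-NC, 82.6 to 90.4 in shFOXRED1, 12.1 to 15.0 in YY2-NC and 61.4 to 67.5 CPM in shYY2.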

How the data were processed

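Gene counts of the OE33 libraries were deposited by the authors as 3 tables, 1 per experiment, each with 61860 rows of raw counts per Ensembl gene and no normalization. Reads were paired-end with 150 bases, and per the submitters' processing notes the builds were hg38 and mm10, with no role given. The aligner, counter and use of strand are not given in the sources used here, and sources differ on whether the library kit was directional and on the RNA kit. Gene symbols came from the IDs matched to GENCODE 29 and RefSeq name tables (99.8% named).

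The members and gene lists were chosen with earlier results of these data known. Tables were joined on Ensembl ID. Genes passed edgeR 4.0.16 filterByExpr (minimum count 10, minimum total 15), and libraries were scaled by TMM and tested with glmQLFit and glmQLFTest in R 4.3.3, p-values being adjusted by Benjamini-Hochberg across every tested gene, and a call at 0.05. SE is the log2 difference divided by the square root of F. Levels are CPM after TMM over all 18 OE33 libraries. They do not correct for gene length and are compared only within a gene. The fitted log2 differences come from the 6 libraries. Genes named were the 3 targeted genes, the 10 protein-coding genes with the largest fold in each direction (called, groups not overlapping, at least 5 CPM in the higher group, MHC region, Y-linked genes and XIST left out), up to 4 called genes per list and direction (at least 2 CPM) with members needed to say what a list holds, which were picked after their values were seen, the 5 largest gains and losses in share of counts, and on/off genes (at most 3 counts against at least 30, up to 10 per direction). The fit was tested on simulated data. Alternatives were DESeq2 1.42.0 (test and size factors), upper quartile scaling, other count filters, a replicate block, 12 libraries in 1 fit, thinning and leaving out each library. No other column of per-sample values was left unused. The table of xenograft tumors was not used here. Some members of the lists are counted but not reported here by name.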

Additional observations from a re-analysis of the deposited data

How the results depend on the processing

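Between the controls, the 10935 calls ranged from 9866 (at least 10 counts in every library) to 11830 (no filter) over the other scalings, filters, tests and fits, and from 10325 to 11055 when a library was left out (5050 to 5460 higher, 5275 to 5595 lower), with 3199 to 3343 calls of at least 2-fold (1681 to 1771 higher, 1451 to 1572 lower). Asking for a fold of at least 1.5 as well left 5660 genes (2979 higher, 2681 lower). With at least 10 counts in every library, 2005 were called at least 2-fold, 882 of them lower, fewer because genes absent from a group are not tested, and with no filter 4253 (2215 higher, 2038 lower). With 12 libraries in 1 fit 3439 were. Leaving out a library gave 10893 to 12439 calls for shFOXRED1 against shYY2, 11212 to 12044 for FOXRED1-NC against EV, 6084 to 6957 for YY2-NC against EV, 4629 to 6853 for shFOXRED1 against its shControl, and 11631 to 11979 for shYY2 against its shControl. Of 313 values of 22 named genes under alternatives, 310 kept direction and call, and the other 3 were YY2. Of 420 medians of 28 lists, 4 reversed, all for the epithelial-mesenchymal list (-0.0607 with no filter, -0.0102 with 12 libraries in 1 fit, -0.0047 without replicate 1 of FOXRED1-NC and -0.0021 without replicate 3 of YY2-NC, the range without a library being -0.0047 to 0.0976). The largest move of a list median was 0.418, for keratins and squamous genes, from -1.01 to -0.59 with at least 10 counts in every library. That filter also took the columnar list from 1.40 to 1.01 and the ERBB list from 0.33 to 0.14. No filter took the matrix list from 0.18 to 0.07 and metallothioneins and zinc transporters from -0.09 to -0.32, which went to -0.16 and -0.14 without replicates 2 and 3 of FOXRED1-NC. Without the latter the cholesterol list went from -0.11 to -0.07. Offsets for GC content and length, added after the data were seen, lowered the medians of the ERBB list to 0.18, the TGF-beta list to 0.22, the fatty acid synthesis list to 0.31 and the matrix list to 0.04, and moved the cholesterol list to -0.17 and the metallothionein list to -0.15.

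The replicate numbers did not pair the libraries: deviations of libraries with the same number correlated at 0.008 to 0.0171. With a replicate block 10974 genes were called between the controls (5440 higher, 5534 lower), and 3041 at least 2-fold, and the block gave 6793 calls for shFOXRED1 against its shControl in place of 5752. The 3 libraries per group bound the precision, and low-count genes such as YY2 and IFNB1 rest on few reads.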
